A study of Mus musculus with 6 samples.

Results

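Transcripts of the phagocyte NADPH oxidase and of the inducible nitric oxide synthase were examined in mouse liver macrophages, the Kupffer cells, of mice with a myeloid deletion of the phospholipid enzyme gene *Lpcat3* and of their littermates. The 6 genes were *Cybb*, *Cyba*, *Ncf1*, *Ncf4* and *Rac2*, which encode parts of the oxidase, and *Nos2*, which encodes the synthase. They were chosen by symbol from the 49315 genes counted in each library. All 6 were found and passed the filter on low counts. RNA came from F4/80-positive liver cells, collected on magnetic beads after collagenase digestion, from 3 WT and 3 Lpcat3 KOMac mice, with 1 library per mouse. Lpcat3 KOMac mice carried Lpcat3 fl/fl and 1 LysM Cre allele, and WT mice were their Lpcat3 fl/fl littermates with no Cre, so that both groups carried the floxed gene. All were on a C57BL/6N background and ate a high-fat diet (60% fat) for 16 weeks from an age of 8 to 12 weeks. The paper names no other treatment of these 6 mice. It ran glucose, insulin and pyruvate tolerance tests in mice on this diet and does not say whether these 6 were included. It used male and female mice and does not state the sex of these 6. LysM Cre is active in myeloid cells in general, neutrophils and monocytes included, and not in Kupffer cells alone. The comparison asks whether a reduction of *Lpcat3*, which places polyunsaturated fatty acids into phospholipids, goes with another level of the genes for these radical-producing enzymes.

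The phagocyte oxidase moves electrons from NADPH across a membrane to oxygen and so makes superoxide. Its membrane part is a dimer of gp91phox, encoded by *Cybb*, and p22phox, encoded by *Cyba*. At rest the other subunits wait in the cytosol: p47phox (*Ncf1*) brings the complex to the membrane, p40phox (*Ncf4*) binds a phosphoinositide of phagosomes, and a Rac GTPase completes it. Inducible nitric oxide synthase makes nitric oxide from arginine, is controlled mainly through transcription, and in mouse macrophages is switched on by interferon-gamma and bacterial products.

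The genes lie apart in the genome. On GRCm38 and as listed with the counts, *Cybb* (ENSMUSG00000015340) spans 9435252 to 9487771 on the minus strand of chromosome X. *Cyba* (ENSMUSG00000006519) spans 122424776 to 122432930 on the minus strand of chromosome 8, and *Ncf1* (ENSMUSG00000015950) 134220053 to 134229625 on the minus strand of chromosome 5. *Ncf4* (ENSMUSG00000071715, 78244801 to 78262580, plus strand) and *Rac2* (ENSMUSG00000033220, 78559169 to 78572783, minus strand) are both on chromosome 15, with 296588 bases between them. *Nos2* (ENSMUSG00000020826) spans 78920787 to 78960254 on the plus strand of chromosome 11. Of the 6, only *Ncf1* shares exonic bases with another counted gene, 408 of them, with *Gtf2ird2* on the other strand. *Gtf2ird2* had at most 977 counts in any library and *Ncf1* at least 13451. The library kit and the notes on processing state no strand setting, so reads of the 2 genes in these bases cannot be told apart.

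The 250 bases before the RefSeq transcription start are shown for the 3 members present in the RefSeq promoter table used here (GRCm38.p6), the membrane pair and the organizer subunit, to show which motifs of myeloid and interferon-driven factors lie where these transcripts begin. Each is printed 5′ to 3′ on the strand of its gene, and capitals mark a motif of interferon regulatory factors, GAAA and again GAAA with any 2 bases between them, searched on both strands as were the motifs named after it.
Cybb, chrX:9469325-9469574, minus strand: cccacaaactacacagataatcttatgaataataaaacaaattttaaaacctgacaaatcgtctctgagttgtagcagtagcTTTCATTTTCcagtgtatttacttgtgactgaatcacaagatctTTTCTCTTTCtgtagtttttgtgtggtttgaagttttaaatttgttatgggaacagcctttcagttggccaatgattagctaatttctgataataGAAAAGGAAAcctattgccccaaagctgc
Cyba, chr8:122432941-122433190, minus strand: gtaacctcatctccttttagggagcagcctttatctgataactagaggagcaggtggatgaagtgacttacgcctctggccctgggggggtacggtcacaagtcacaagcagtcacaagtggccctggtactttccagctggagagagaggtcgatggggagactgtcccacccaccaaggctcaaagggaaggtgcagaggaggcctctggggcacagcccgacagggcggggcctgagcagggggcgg
Ncf1, chr5:134229626-134229875, minus strand: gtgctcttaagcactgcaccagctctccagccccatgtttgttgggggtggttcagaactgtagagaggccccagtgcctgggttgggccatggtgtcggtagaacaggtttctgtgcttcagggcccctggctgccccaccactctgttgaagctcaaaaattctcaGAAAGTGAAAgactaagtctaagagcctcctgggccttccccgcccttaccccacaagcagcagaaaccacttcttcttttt
The motif was found 3 times in the *Cybb* window, once in that of *Ncf1* and not in that of *Cyba*, and 3.0% of all 32851 RefSeq windows of this length hold it. GAGGAA, the core bound by the myeloid factor PU.1, was in none of the 3 windows, against 23.3% of all windows. *Cybb* has 1 copy of it on the minus strand of the window, from base 9 to base 14 after the position set as 0 at the start site, and 28.3% of windows that include the 50 bases after the start hold a copy. CCAAT was found once in *Cybb* (33.8% of windows) and TATAAA and GGAAGT in none of the 3 (12.4% and 19.7% of windows). The GC content was 34% for *Cybb*, 60% for *Cyba* and 54.4% for *Ncf1*, beside a median of 52.4% over all windows. None of the 3 windows holds an exonic base of a counted gene. That of *Cybb* lies within the span of the longer gene model listed with the counts. These are matches of letters only.

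Total counts lay between 44954224 and 71392812 per library. Levels are given as CPM, the counts of a gene scaled to the total of its library, after TMM normalization for composition. Where 3 levels follow each other they are those of mice 1, 2 and 3, WT first. SE is the standard error. A log2 fold change compares Lpcat3 KOMac with WT in edgeR's quasi-likelihood test over 16134 genes. The labels held for the targeted gene: *Lpcat3* measured 85, 66.2 and 61.2 CPM (WT) and 19.5, 33.3 and 19.4 CPM (Lpcat3 KOMac), with a log2 fold change of -1.56 (SE 0.26, unadjusted p = 0.00119, adjusted p = 1 in edgeR). The Lpcat3 KOMac mean was 34% of the WT mean, so reads of the gene were reduced and not absent. The paper describes its model as one of partial deficiency. *Lpcat3* shares 334 exonic bases with *Emg1* on the other strand, which had up to 2675 counts against at least 912 for *Lpcat3*. The part of *Emg1* and of RNA from other cells in the remaining reads was not tested. Kupffer cell transcripts were abundant in every library, with *Clec4f*, a lectin of Kupffer cells, between 6449 and 12171 CPM and *Adgre1*, which encodes F4/80, between 1985 and 3051 CPM. Hepatocyte RNA was present and uneven. The summed level of 5 hepatocyte transcripts ranged from 1626 to 17995 CPM in WT and from 4089 to 11757 CPM in Lpcat3 KOMac mice, and was highest in WT mouse 1 and Lpcat3 KOMac mouse 2. Results are therefore also given without these 2 mice. At a threshold of 0.05, edgeR with Benjamini-Hochberg adjustment called 0 of the 16134 genes, and 426 passed before adjustment, while DESeq2 called 15 (0.093%). *Lpcat3* was among those called by DESeq2 (adjusted p = 0.0028 in its Wald test). Thus edgeR did not call even the targeted gene, and a gene not called by it is not shown to be unchanged.

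The oxidase transcripts were abundant in both genotypes, and each of the 5 genes had a mean in Lpcat3 KOMac mice of 79.2% to 92.3% of the WT mean, a direction that for *Cybb* turned with another scaling or without WT mouse 2. None of these differences passed the test. Of the 6 genes, *Ncf1* alone was lower in every Lpcat3 KOMac mouse than in every WT mouse, as were 5.2% of all tested genes. *Nos2* had few counts in any mouse and varied 12.6-fold over the 6 mice, with high and low levels in both genotypes.

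*Cybb*, the catalytic subunit, measured 1486, 2086 and 1726 CPM (WT) and 1686, 1509 and 1694 CPM (Lpcat3 KOMac). The lowest and the highest level were both in WT mice, and the Lpcat3 KOMac mice lay between them. The mean was 1766 ± 302 CPM in WT and 1630 ± 104 CPM in Lpcat3 KOMac mice (SD, n = 3 each). This gave a log2 fold change of -0.12 (SE 0.15, 95% interval -0.47 to 0.24, adjusted p = 1 in edgeR). An exact permutation test of the 3 against 3 mice gave p = 0.5 (two-sided), where 0.1 is the smallest p such groups allow. Without WT mouse 2, the mouse with the most *Cybb*, the log2 fold change was 0.021. It was 0.051 when levels were scaled to the macrophage transcripts *Adgre1*, *Csf1r* and *Cd68* in place of all genes.

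*Cyba*, whose product stabilizes gp91phox, measured 456, 539 and 535 CPM (WT) and 432, 407 and 503 CPM (Lpcat3 KOMac). Of the Lpcat3 KOMac mice 2 were below every WT mouse, and mouse 3 was above WT mouse 1, so the groups overlapped. The log2 fold change was -0.19 (SE 0.12, 95% interval -0.49 to 0.11, adjusted p = 1 in edgeR, exact permutation p = 0.2). The transcript is short, with 1039 exonic bases, and after an offset for the trend of counts with transcript length the log2 fold change was -0.12. It was -0.11 without Lpcat3 KOMac mouse 2 and -0.041 when scaled to the 3 macrophage transcripts.

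*Ncf1* measured 330, 420 and 348 CPM (WT) and 286, 259 and 324 CPM (Lpcat3 KOMac). The groups did not overlap, although Lpcat3 KOMac mouse 3 was close to WT mouse 1. Among all tested genes, 2.29% were separated in the other direction, beside the 5.2% separated in this one. The mean was 366 ± 47.7 CPM in WT and 290 ± 32.6 CPM in Lpcat3 KOMac mice (SD, n = 3 each). This gave a log2 fold change of -0.34 (SE 0.14, 95% interval -0.67 to -0.0030). Its unadjusted p was 0.0485 in edgeR (adjusted p = 1). An unadjusted p under 0.05 was found for 2.64% of tested genes, and for 1.57% together with a lower level in Lpcat3 KOMac mice. The exact permutation p was 0.1, the smallest possible. With other settings the log2 fold change stayed between -0.41 and -0.18, and the unadjusted p was under 0.05 in 5 of 18 of them. The smallest size, -0.18, was found with scaling to the 3 macrophage transcripts (unadjusted p = 0.156 in edgeR).

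The counts of *Ncf1* relative to those of *Cybb* in the same library do not depend on the scaling. WT mice had ratios of 0.222, 0.202 and 0.201, and Lpcat3 KOMac mice of 0.17, 0.172 and 0.191. It was thus higher in each WT mouse than in any Lpcat3 KOMac mouse, with means of 0.208 ± 0.0121 and 0.178 ± 0.012 (SD, n = 3 each; exact permutation p = 0.1). The ratio was examined after the levels had been seen, when *Ncf1* was already known as the separated gene. With *Cyba*, *Ncf4* or *Rac2* as the denominator in place of *Cybb*, the ratios of the genotypes overlapped. How many other genes have a ratio to *Cybb* that separates the genotypes was not examined.

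*Ncf4* measured 101, 153 and 144 CPM (WT) and 115, 115 and 119 CPM (Lpcat3 KOMac). WT mouse 1 had the lowest level of all, and the Lpcat3 KOMac mice lay close together above it. The log2 fold change was -0.19 (SE 0.17, 95% interval -0.60 to 0.22, adjusted p = 1 in edgeR, exact permutation p = 0.4). Without WT mouse 1 it was -0.35 (unadjusted p = 0.00486, adjusted p = 0.294 in edgeR), without WT mouse 2 it was -0.074, and scaled to the 3 macrophage transcripts it was -0.016. *Rac2*, the Rac GTPase of blood-derived cells, measured 312, 412 and 406 CPM (WT) and 366, 268 and 361 CPM (Lpcat3 KOMac). The lowest level was that of Lpcat3 KOMac mouse 2 and the other two Lpcat3 KOMac mice were within the WT range. The log2 fold change of *Rac2* was -0.18 (SE 0.17, 95% interval -0.61 to 0.24, adjusted p = 1 in edgeR, exact permutation p = 0.5), and it was -0.30 without WT mouse 1, -0.034 without Lpcat3 KOMac mouse 2 and -0.036 when scaled to the 3 macrophage transcripts.

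*Nos2* had 22, 7 and 65 counts in WT mice 1 to 3 and 33, 91 and 16 counts in Lpcat3 KOMac mice 1 to 3. Every library was thus above the 3 counts taken as the floor of detection. In CPM the levels were 0.339, 0.14 and 1.42 in WT and 0.568, 1.76 and 0.34 in Lpcat3 KOMac mice. The genotypes overlapped over nearly their whole ranges. For each read on *Nos2* there were between 860 and 14926 reads on *Cybb*. The log2 fold change of 0.50 had a standard error of 1.00 and a 95% interval from -1.96 to 2.96 (adjusted p = 1 in edgeR, exact permutation p = 0.5), so that anything from a level of 0.257 to one of 7.78 times that of WT lay within it. Its sign changed without Lpcat3 KOMac mouse 2 (-0.44) and without both mice rich in hepatocyte RNA (-0.75), and its value was 1.86 without WT mouse 3.

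**Figure D1:**
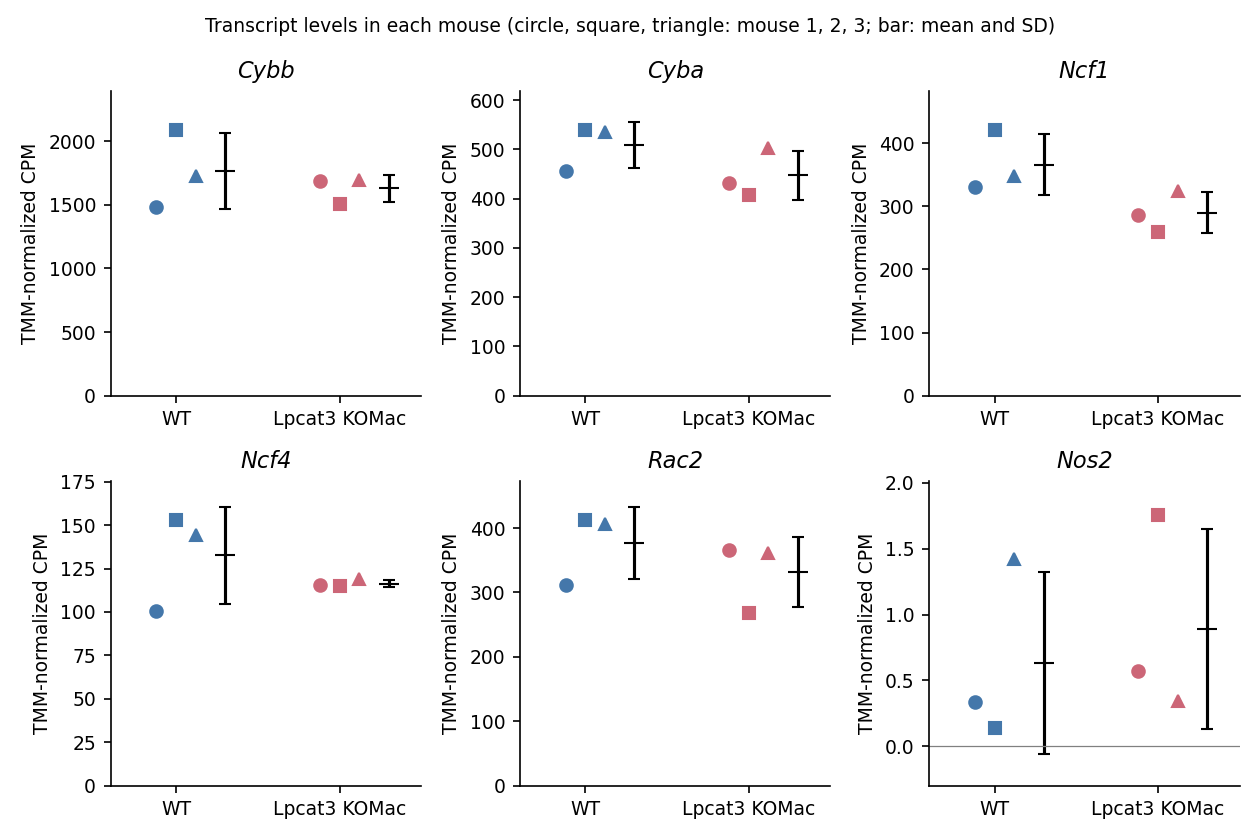
TMM-normalized CPM of the 6 genes in each mouse, WT in blue and Lpcat3 KOMac in red, with the mean and SD of the 3 mice beside the points. Only for *Ncf1* do the groups not overlap, and *Nos2* lies below 2 CPM in each mouse.

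Across the 6 genes, 0 passed the adjusted threshold in edgeR (0.0% of all genes did), 1 of 6 had an unadjusted p under 0.05, and the DESeq2 and limma-voom fits called 0 of them as well. The median log2 fold change of the 6 was -0.19, beside -0.039 over all tested genes, of which 59.9% had a log2 fold change below 0. Without both mice rich in hepatocyte RNA edgeR again called 0 of the 6, and the log2 fold changes were -0.17 for *Cybb*, -0.20 for *Cyba*, -0.33 for *Ncf1*, -0.34 for *Ncf4* and -0.17 for *Rac2*. In that fit *Ncf4* alone of the 6 had an unadjusted p under 0.05 (0.010, adjusted p = 0.211), as did 1767 of the 16126 genes tested, against 426 with all mice. Without WT mouse 1 alone it was 2028 of 16487 genes. The 6 genes were measured in the same 6 libraries, so their values are not independent measurements of the genotype.

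**Figure D2:**
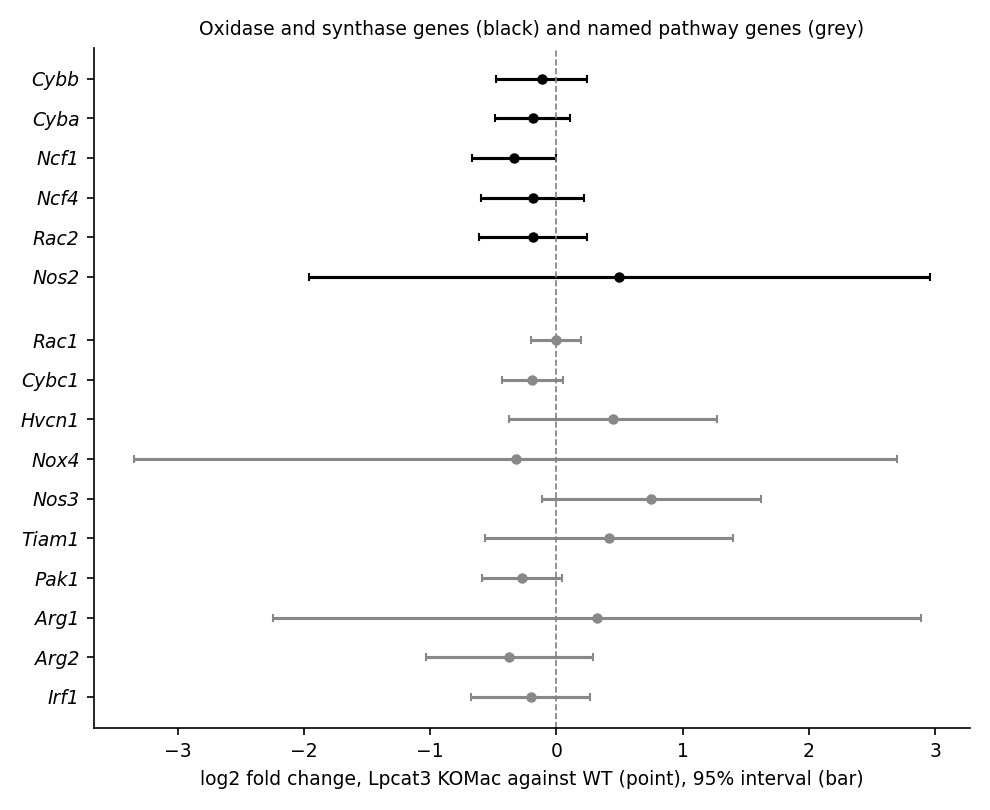
Log2 fold change of Lpcat3 KOMac against WT with its 95% interval from edgeR, for the 6 genes (black) and for named genes of the pathway (grey). Each interval but that of *Ncf1* includes 0, and the intervals of *Nos2*, *Nox4* and *Arg1* are the widest shown.

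Scaled to the length of their exons, the 6 transcripts kept 1 order in 6 of 6 libraries: *Cyba*, *Cybb*, *Rac2*, *Ncf1*, *Ncf4* and *Nos2*. Their mean levels over the 6 mice were 461, 292, 117, 89.5, 61.6 and 0.172 CPM per kb. *Cyba* (392 to 519 CPM per kb) and *Cybb* (256 to 359) did not overlap across mice, nor did *Cybb* and *Rac2* (88.4 to 136). The ranges of *Rac2* and *Ncf1* (70.8 to 115) overlapped, and so did those of *Ncf1* and *Ncf4* (49.8 to 75.6). With the longest coding transcript in GENCODE M21 as the length, *Rac2* at 117 and *Ncf1* at 114 CPM per kb were nearly level, and the order of the means was kept. With the shortest coding transcript, of only 390 bases for *Cybb* and 254 for *Rac2*, the order changed, to *Cybb* at 4353, *Rac2* at 1394, *Cyba* at 750, *Ncf4* at 157, *Ncf1* at 121 and *Nos2* at 0.222 CPM per kb. The ratio of *Cyba* to *Cybb* per length ranged from 1.43 to 1.73, with no separation of the genotypes (exact permutation p = 0.5).

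Other genes that serve the phagocyte oxidase were also transcribed in each mouse. *Rac1*, the Rac GTPase found in nearly all cells, measured 402, 449 and 434 CPM (WT) and 430, 415 and 437 CPM (Lpcat3 KOMac), a log2 fold change of -0.0042 (SE 0.080), whose sign depended on the setting. *Rac1* was picked after its values were seen, because a Rac GTPase completes the enzyme. Per kb of exon *Rac2* stood at 0.958 to 1.38 times *Rac1*, lowest in Lpcat3 KOMac mouse 2. *Rac1* shares 2309 exonic bases with *Daglb* on the other strand, which had up to 5340 counts, so this ratio is uncertain. *Cybc1*, a chaperone of the membrane dimer, had a log2 fold change of -0.19 (SE 0.098). The proton channel gene *Hvcn1*, whose product balances the charge that the oxidase moves, had one of 0.45 (SE 0.34) and was at 3.53 to 9.28 CPM. The value for *Hvcn1* was 0.23 without WT mouse 2, 0.27 without Lpcat3 KOMac mouse 1 and 0.76 without WT mouse 3, and that for *Cybc1* was -0.11 without WT mouse 1. *Hvcn1* shares 1574 exonic bases with *Tctn1* on the other strand. Of the 4 genes listed for this group 0 had an unadjusted p under 0.05, and their median was -0.066.

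Other oxidases and synthases were rare. Of 11 genes, 4 passed the filter, and 5 had 3 counts or fewer in each library: *Nox3*, *Duox1*, *Duox2*, *Duoxa1* and *Duoxa2*. *Nox4*, an oxidase that makes hydrogen peroxide and needs no cytosolic subunit, measured 21.3, 1.92 and 0.853 CPM (WT) and 5.61, 9.82 and 3.87 CPM (Lpcat3 KOMac). Its highest levels were in WT mouse 1 and Lpcat3 KOMac mouse 2, the mice with the most hepatocyte RNA, and its log2 fold change was -0.32 (SE 1.21) in all mice, 2.21 without WT mouse 1 and 1.77 without both (adjusted p = 0.236 in edgeR). With the hepatocyte level as a covariate it was 0.15.

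Among the nitric oxide synthases *Nos2* was not the leading form. Per kb of exon the mean over 6 mice was 1.5 CPM for the endothelial *Nos3*, 0.254 for the neuronal *Nos1* and 0.172 for *Nos2*, and *Nos1* and *Nos2* overlapped across mice. *Nos3* measured 6.02, 2.82 and 5.05 CPM (WT) and 8.52, 9.35 and 5.55 CPM (Lpcat3 KOMac), where the lowest Lpcat3 KOMac mouse was below the highest WT mouse. Its log2 fold change was 0.75 (SE 0.35, 95% interval -0.11 to 1.62, unadjusted p = 0.0764 in edgeR, adjusted p = 1), and it was 0.50 without WT mouse 2. The endothelial markers beside it were uneven: 4 of 5 had a log2 fold change above 0, with *Kdr* at 0.79 (SE 0.27), and their summed level was 795 to 909 CPM in WT and 880 to 1063 CPM in Lpcat3 KOMac mice. Their part in the *Nos3* value was not tested.

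**Figure D3:**
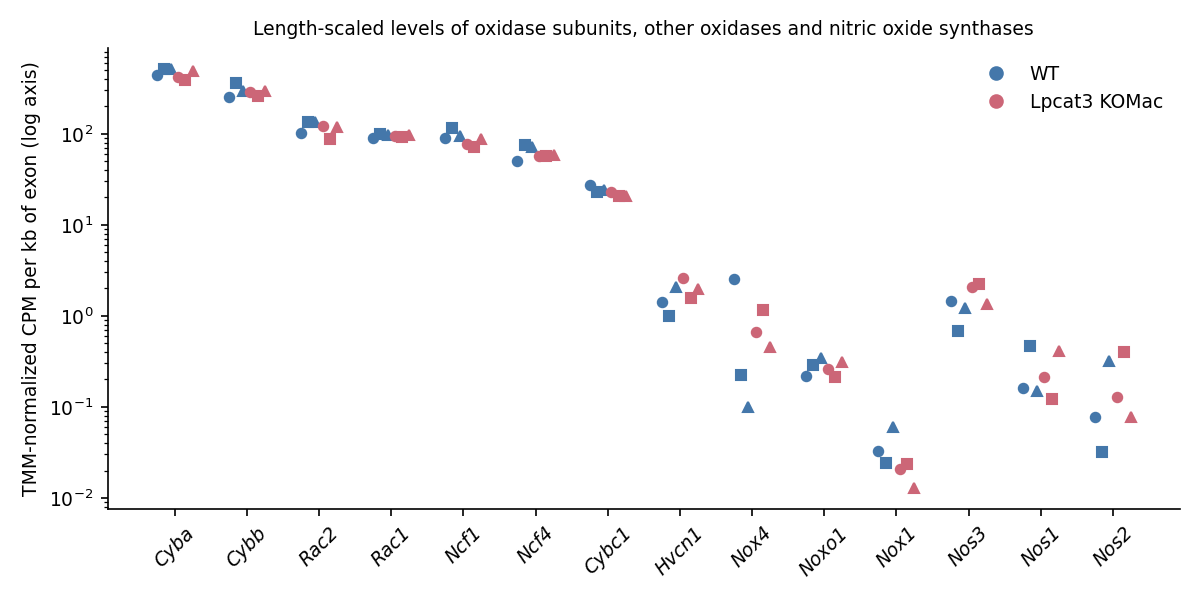
TMM-normalized CPM per kb of exon (log axis) in each mouse for oxidase subunits, other oxidases and the 3 nitric oxide synthases, WT in blue and Lpcat3 KOMac in red, with a circle, square and triangle for mice 1, 2 and 3. Subunits of the phagocyte oxidase and their chaperone gene *Cybc1* lie above 20 CPM per kb, while *Hvcn1*, the other oxidases and the synthases lie below 3.

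Genes that act on these enzymes were compared by lists. Of 14 regulators of the oxidase (Rac exchange factors, inhibitors that hold Rac in the cytosol, and kinases), 14 passed the filter, 0 had an unadjusted p under 0.05 and the median log2 fold change was -0.055. The list mixes genes that promote and that restrain Rac, so its median gives no direction for oxidase activity. The largest log2 fold changes were those of *Tiam1*, a Rac exchange factor (0.41, SE 0.40), and *Pak1*, a kinase that Rac binds (-0.27, SE 0.13). *Tiam1* was at 0.12 without Lpcat3 KOMac mouse 1 and at 0.17 without WT mouse 1, and *Pak1* at -0.16 without WT mouse 2. *Pak1* measured 101, 139 and 121 CPM (WT) and 101, 101 and 97.5 CPM (Lpcat3 KOMac). Of 8 transcription factors known to act on *Cybb* or *Nos2*, 0 had an unadjusted p under 0.05 and the median was -0.093. *Irf1*, which acts in the response to interferon-gamma, had the largest value at -0.20 (SE 0.19). *Irf1* measured 157, 237 and 231 CPM (WT) and 165, 208 and 169 CPM (Lpcat3 KOMac), with overlap between the groups. Its value lay between -0.37 and -0.099 with single mice left out, was -0.48 without both mice rich in hepatocyte RNA (unadjusted p = 0.00214, adjusted p = 0.122 in edgeR) and was -0.019 with scaling to the 3 macrophage transcripts.

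The supply of arginine and of tetrahydrobiopterin, the substrate and a cofactor of the synthase, was covered by 11 genes, of which 0 had an unadjusted p under 0.05 (median -0.15, range -0.37 to 0.33). Their summed level ranged from 349 to 1422 CPM in WT and from 533 to 1210 CPM in Lpcat3 KOMac mice. *Ass1*, *Slc7a2*, *Asl*, *Gch1*, *Gchfr*, *Spr* and *Qdpr* were highest in WT mouse 1 and Lpcat3 KOMac mouse 2, the mice with the most hepatocyte RNA. *Slc7a1*, *Arg2* and *Pts* were not. The part of hepatocyte RNA in the summed level and in the median was not tested. *Arg1*, the arginase of the urea cycle, which uses the same substrate as the synthase, measured 223, 24.5 and 37.1 CPM (WT) and 65, 234 and 57.9 CPM (Lpcat3 KOMac). Its 2 highest levels were in the mice with the most hepatocyte RNA, and its log2 fold change was 0.33 (SE 1.03) in all mice, 1.00 without both of these (unadjusted p = 0.00619, adjusted p = 0.166 in edgeR) and 0.18 with the hepatocyte covariate. *Arg2*, the mitochondrial arginase, measured 17.7, 22.9 and 23.4 CPM (WT) and 17.5, 10.8 and 21.1 CPM (Lpcat3 KOMac), a log2 fold change of -0.37 (SE 0.27) that was -0.12 without Lpcat3 KOMac mouse 2 and -0.56 without Lpcat3 KOMac mouse 3. *Arg2* shares 285 exonic bases with *Vti1b* on the other strand, which had up to 5710 counts against at least 560 for *Arg2*, so its level is uncertain.

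The 5 oxidase genes varied somewhat less between mice than the median tested gene. The SD of their log2 CPM over the 6 libraries lay between 0.17 and 0.24, beside a median of 0.26 over all tested genes and 1.27 for *Nos2*. Between 31.9% and 46.6% of tested genes had a smaller SD than these 5, and 93.6% had a smaller SD than *Nos2*. All 5 were highest in WT mouse 2, and 3 of the 5 were lowest in Lpcat3 KOMac mouse 2. The macrophage transcripts *Adgre1*, *Csf1r* and *Cd68* shared this order at its ends. Their mean log2 level deviated from the mean of the 6 mice by 0.36 in WT mouse 2 and by -0.25 in Lpcat3 KOMac mouse 2, and that of the 5 oxidase genes by 0.28 and -0.24. In such bulk samples fewer macrophages and less RNA per macrophage cannot be told apart. The hepatocyte transcripts deviated by 2.13 in WT mouse 1 and 1.18 in Lpcat3 KOMac mouse 2.

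**Figure D4:**
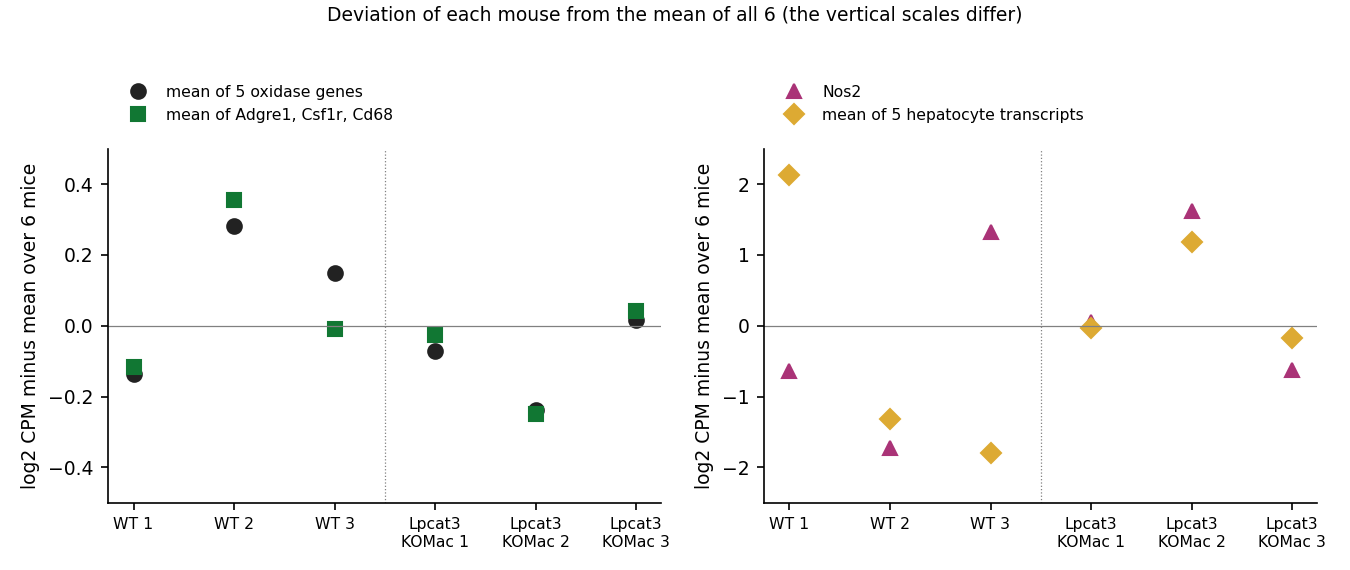
Log2 CPM minus the mean over the 6 mice, on the left for the mean of the 5 oxidase genes (black) and of *Adgre1*, *Csf1r* and *Cd68* (green), on the right for *Nos2* (purple) and the mean of 5 hepatocyte transcripts (yellow), with different vertical scales. Oxidase and macrophage transcripts are both highest in WT mouse 2 and lowest in Lpcat3 KOMac mouse 2.

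Neutrophils and monocytes also contain much of this oxidase. Of 9 neutrophil markers 7 passed the filter, 6 of these with a log2 fold change above 0, while 59.9% of all tested genes were below 0. *S100a8*, which neutrophils hold in great amounts, was at 0.719 to 0.875 CPM in WT and at 0.947 to 2.19 CPM in Lpcat3 KOMac mice (log2 fold change 0.99, SE 0.36, unadjusted p = 0.0353 in edgeR, adjusted p = 1). *Camp* and *Ltf*, proteins of neutrophil granules, did not pass the filter. *Camp* had 1, 0 and 0 counts in WT and 1, 6 and 11 in Lpcat3 KOMac mice, and *Ltf* had 10, 1 and 2 counts in WT and 6, 24 and 36 in Lpcat3 KOMac mice. The summed level of the 9 was 82.1 to 159 CPM in WT and 84.1 to 145 CPM in Lpcat3 KOMac mice, most of it *Csf3r*. *Csf3r* was the 1 tested neutrophil marker with a log2 fold change below 0 (-0.17, SE 0.33). Of 8 monocyte markers 6 had a log2 fold change above 0, 2 of them, *Chil3* and *F13a1*, at an unadjusted p under 0.05 in edgeR, which 2.64% of all tested genes had. Their summed level was 167 to 287 CPM in WT and 183 to 249 CPM in Lpcat3 KOMac mice. The 8 were uneven, with *Ly6c2*, which marks inflammatory monocytes, at 0.579 to 1.4 CPM, and the chemokine receptor genes *Ccr2* at 17.5 to 92.5 CPM and *Cx3cr1* at 10.5 to 73 CPM. *Plac8* was at 19.1 to 73.6 CPM and *Nr4a1* at 33.1 to 78.6 CPM. Both had a log2 fold change below 0, of -0.51 (SE 0.43) for *Plac8* and -0.28 (SE 0.33) for *Nr4a1*. *Chil3* measured 1.12, 1.04 and 2.12 CPM (WT) and 8.77, 2.43 and 2.70 CPM (Lpcat3 KOMac), highest in Lpcat3 KOMac mouse 1. *F13a1* measured 1.52, 2.36 and 3.02 CPM (WT) and 6.80, 3.01 and 4.42 CPM (Lpcat3 KOMac), and its groups overlapped. Summed levels were 15.7 to 29.2 CPM for 5 B cell markers, 16.6 to 54.8 CPM for 6 dendritic cell markers and 1.34 to 2.89 CPM for 6 T and NK cell markers over all mice. Most of the B cell sum was *Cd79b*, at 10.3 to 21.3 CPM, and most of the dendritic cell sum was *Clec9a*, at 13.8 to 51.3 CPM. All 8 Kupffer cell markers had a log2 fold change below 0, with a median of -0.23, beside the -0.19 of the 6 genes studied and the 59.9% of all tested genes below 0. *Clec4f* was lower in every Lpcat3 KOMac mouse than in every WT mouse (log2 fold change -0.44, SE 0.17, unadjusted p = 0.0423 in edgeR, adjusted p = 1). The part of these cell types in the oxidase values was not tested.

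The genes most like each member were sought as the 3 with the smallest root mean square difference of log2 CPM over the 6 mice, each gene centred on its own mean, among 16128 other genes. For *Cybb* they were *Acp2*, a lysosomal acid phosphatase (0.020), *Themis2* (0.027) and *Pilra* (0.027), where the median over all genes was 0.27. For *Cyba* they were *Dguok* (0.021), *Ik* (0.022) and *Kctd13* (0.033). *Ncf1* was closest to *Peli1*, a ubiquitin ligase of Toll-like receptor signalling (0.031), *4930599N23Rik* (0.036) and *C1qa*, a chain of complement C1q made by Kupffer cells (0.048). *Ncf4* was closest to *Gm45472* (0.033), *Samhd1* (0.033) and *Gsdmd*, the pore-forming gasdermin D (0.044), and *Rac2* to *Armc7* (0.029), *Cds1* (0.038) and *Cmtm3* (0.047). Between pairs of the 5 oxidase genes the difference ranged from 0.10 (*Cybb* and *Ncf4*) to 0.17 (*Ncf1* and *Ncf4*). Nothing came so near to *Nos2*, whose closest gene was *4930555A03Rik* at 0.28 and whose difference from the 5 oxidase genes was at least 1.21. This measure grows with the spread of a gene itself, and *Nos2* had an SD of 1.27. The nearest 3 of so many genes also lie below the median by selection, so no shared control is read from these values.

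**Figure D5:**
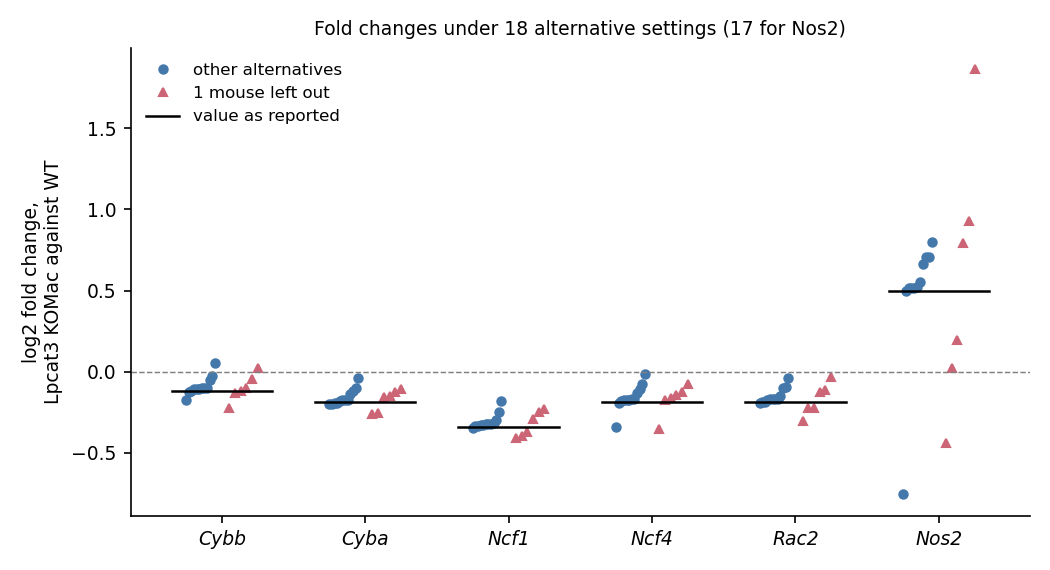
Log2 fold change of Lpcat3 KOMac against WT for each of the 6 genes under alternative settings, with 1 mouse left out (red triangles) or another choice of processing (blue points), and the reported value as a black line. *Cyba*, *Ncf1*, *Ncf4* and *Rac2* stay below 0 under the settings run, while *Cybb* and *Nos2* cross it.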

How the data were processed

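Polyadenylated RNA of F4/80-positive liver cells from 6 mice was sequenced. The authors deposited 1 table of raw read counts per mouse, without normalization. The submitters' processing notes name Trimmomatic 0.36, STAR 2.5.2b, featureCounts of Subread 1.5.2 and GRCm38, with no role given. The strand setting and the treatment of multi-mapped reads are not given in the sources used here, so overlapping genes are uncertain. Of 49315 gene identifiers, 49056 were named through GENCODE M21. Total counts were 44954224 to 71392812, so counting error matters only for rare transcripts such as *Nos2*.

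Genotype and mouse number came from the sample titles. The comparison used edgeR 4.0.16 under R 4.3.3 (TMM, expression filter with a minimum count of 10, robust quasi-likelihood test, genotype as the only term, Benjamini-Hochberg adjustment over 16134 genes, threshold 0.05). Each standard error was taken as |log2 fold change| over the root of the F statistic. Log2 CPM used a prior count of 2. For single genes an exact permutation test on log2 CPM (two-sided) was added. Alternatives were 15 chosen with the design (DESeq2 1.42.0 and limma-voom of limma 3.58.1 among them) and 3 chosen after seeing the data: scaling to 3 macrophage transcripts, DESeq2 without independent filtering, and leaving out the 2 mice richest in hepatocyte transcripts. The members and lists were chosen with earlier results of these data known. Values were given for the members and for the 3 genes most like each member. In the pathway lists they were given for genes with an unadjusted p under 0.05 or the 2 largest fold changes of their list. *Rac1*, *Nos1*, *Lpcat3* and the cell type markers fall outside this rule, and the markers named were not picked by a fixed rule.

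Same-numbered mice of the 2 genotypes are different animals. Libraries of every pair differed beyond sampling noise (chi-square over its degrees of freedom at least 37). Whether mice shared a litter or a day is not given, and the tests treat the mice as independent. Protein sequences were not used here. A few genes counted within the lists are not reported here by name.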

Additional observations from a re-analysis of the deposited data

How the results depend on the processing

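The number of called genes was 0 in edgeR under each of its alternatives, 15 with DESeq2's Wald test and 11 with DESeq2 without independent filtering. The number of the 6 genes called was 0 under all 18 alternatives. Their median log2 fold change ranged from -0.28 to -0.026, beside -0.19 in the main fit, and was nearest to 0 with scaling to the 3 macrophage transcripts. Each move was smaller than the spread between mice (SD 0.18). That spread is nearly as large as the median itself, so this does not show the median to be stable. Leaving out single mice, the log2 fold changes ranged from -0.23 to 0.021 for *Cybb*, from -0.44 to 1.86 for *Nos2*, from -0.85 to 2.21 for *Nox4*, from -0.63 to 1.95 for *Arg1* and from -0.047 to 0.033 for *Rac1*. Scaling to 3 macrophage transcripts shifted the median of all genes by 0.15, and *Cybb* was then at 0.051 and *Rac1* at 0.15, while *Cyba* was at -0.041, *Ncf1* at -0.18, *Ncf4* at -0.016 and *Rac2* at -0.036. Without both mice rich in hepatocyte transcripts *Nos2* was at -0.75 and *Nox4* at 1.77. *Nox4* was at 0.70 in limma-voom and at 0.15 with the hepatocyte covariate. *Rac1* was at 0.0092 with DESeq2's size factors, 0.088 with total counts, 0.0041 with at least 10 counts in every library, 0.0092 in both DESeq2 fits, 0.020 with the hepatocyte covariate and 0.0031 with the length offset. The cause of these changes was not tested. *Nos2* had 7 counts in WT mouse 2 and was not tested where at least 10 counts were required.

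With the replicate block edgeR called 0 genes, 0 of them members, and 138 had an unadjusted p under 0.05, against 426 without it. In the replicate block fit the log2 fold changes were -0.10 for *Cybb*, -0.19 for *Cyba*, -0.33 for *Ncf1*, -0.17 for *Ncf4*, -0.19 for *Rac2* and 0.71 for *Nos2*, the median of the 6 was -0.18, and only *Nox4*, at 1.04, changed sign. The deviations of same-numbered mice correlated across genes at -0.30, -0.60 and 0.36 for numbers 1 to 3. These deviations were taken from the mean of each genotype in libraries with uneven hepatocyte RNA, so the correlations can neither show nor exclude pairing. The main fit took no pairing from the numbers. Whether same-numbered mice shared a litter or a day is not given, and genes are not independent replicates. Depth limits rare transcripts such as *Nos2*, with 7 to 91 counts.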
